A study of Mus musculus with 12 samples.

Results

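Voltage-gated potassium (Kv) channel subunits and their auxiliary proteins were followed in mouse dorsal root ganglia, which hold the cell bodies of somatic sensory neurons, after the gene for the zinc finger regulator Prdm12 was deleted in adult mice. The set holds 40 genes of the 55416 counted, taken by symbol: 31 alpha subunits of the Kv1 to Kv12 families, 3 cytoplasmic beta subunits (Kcnab), 4 KChIP genes (Kcnip) and 2 Kcne genes. All 40 symbols matched 1 gene identifier each. The 6 iKO libraries (inducible knockout, 3 female and 3 male) came from adult C57Bl6 mice with both Prdm12 alleles floxed and Cre ERT2, a recombinase that tamoxifen switches on, driven from Rosa26 (labelled Rosa26Cre ERT2; Fl/Fl). They were taken a month after tamoxifen. Rosa26 is active in most cell types, so the recombinase was not limited to neurons. The 6 controls were adults of the same strain and of several kinds. Control 1 (female) had Cre ERT2 and 1 floxed allele, controls 2 (female) and 3 (male) had 1 floxed allele without Cre, and control 4 (male) had Cre ERT2 with 0 floxed alleles, all of them given tamoxifen. Controls 5 and 6 (male) had the iKO genotype but were injected with corn oil. Whether each library came from 1 animal or from several is not stated, so the tests measure only how far these libraries spread. Controls 1 to 4 differed in sex or genotype and so came from different animals. For iKO libraries of the same sex, and for controls 5 and 6, this is not stated. Their spread may be technical.

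Kv channels open when a neuron is depolarised and let potassium leave, which ends the action potential, sets the pause before the next one and holds back repetitive firing. An alpha subunit carries the voltage sensor and part of the pore, and 4 of them form a channel. Electrically silent alpha subunits conduct only after joining Kv2 subunits, beta subunits bind Kv1 channels, KChIP proteins bind Kv4 channels, and Kcne proteins attach to several kinds of alpha subunit. In sensory neurons Kv1.1 and Kv1.2 lie beside the nodes of myelinated axons, Kv1.4 and Kv4 channels give fast A-type currents, and Kv7 channels give the M-current that restrains firing.

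Libraries held 13943784 to 20377766 counts. Prdm12 was at 18.6, 23.9 and 25.4 CPM (lowest, median and highest; counts scaled to a common library size) in iKO libraries and at 64.6, 124 and 147 CPM in controls. The mean was 23.3 ± 2.51 CPM in iKO libraries and 117 ± 29.4 CPM in controls (SD, n = 6 each), a log2 fold change of -2.33 ± 0.18 (SE). The groups did not overlap (exact 2-sided permutation test, p = 0.00216, the smallest that this design can give), and control 6 was the lowest control. The summed level of 12 sensory neuron markers was 12118 to 17178 CPM in iKO libraries and 13451 to 17461 CPM in controls, while 7 spinal cord markers summed to at most 5.47 CPM in iKO libraries and 4.01 CPM in controls. The iKO 1 library stood apart in its marker genes. Its marker score (mean log2 CPM after centring each gene) was 1.08 over the 8 macrophage genes, against -0.38 to -0.18 in the other iKO libraries. The fibroblast score was 1.02, against -0.30 to -0.06, and the endothelial score 0.87, against -0.32 to -0.19. The sensory neuron score was -0.32 in iKO 1, 0.07 to 0.12 in the other iKO libraries and -0.13 to 0.11 in controls. Counts of members called and of signs, and the fold changes of Kcnab1, Kcnv1 and Kcnq5, are given with and without iKO 1. Most other fold changes against all controls are given only with iKO 1 included. Among these are Kcna4, Kcng1, Kcne4, Kcnh6 and Kcnh3, for which iKO 1 was also the lowest iKO library. In ganglion tissue fewer cells of a type and less RNA per cell cannot be told apart.

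Kcnab1, which encodes the beta subunit Kvβ1, was the only member called in iKO ganglia against controls. For this gene the RefSeq table (build GRCm38.p6) lists 3 transcription starts, and the counts add up the transcripts of all of them, so the change cannot be assigned to 1 start. The windows of 300 bases around these starts (250 before, 50 after) are shown to let them be told apart, with CG dinucleotides in capitals. The counts were made on GRCm39, to which these coordinates do not apply.
Kcnab1 start 1, chr3:64948962-64949261, plus strand: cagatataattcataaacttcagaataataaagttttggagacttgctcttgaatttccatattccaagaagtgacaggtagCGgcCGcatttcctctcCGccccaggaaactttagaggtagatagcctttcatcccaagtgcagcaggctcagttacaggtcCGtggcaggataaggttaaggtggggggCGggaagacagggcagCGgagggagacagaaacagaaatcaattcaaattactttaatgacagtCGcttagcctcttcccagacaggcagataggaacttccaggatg
Kcnab1 start 2, chr3:65108764-65109063, plus strand: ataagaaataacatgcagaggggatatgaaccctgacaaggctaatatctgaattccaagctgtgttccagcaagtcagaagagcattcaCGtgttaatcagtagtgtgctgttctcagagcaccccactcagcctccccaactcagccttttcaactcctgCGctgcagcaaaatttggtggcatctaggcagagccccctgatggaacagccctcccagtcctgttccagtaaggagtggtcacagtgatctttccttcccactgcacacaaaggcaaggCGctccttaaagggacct
Kcnab1 start 3, chr3:65187853-65188152, plus strand: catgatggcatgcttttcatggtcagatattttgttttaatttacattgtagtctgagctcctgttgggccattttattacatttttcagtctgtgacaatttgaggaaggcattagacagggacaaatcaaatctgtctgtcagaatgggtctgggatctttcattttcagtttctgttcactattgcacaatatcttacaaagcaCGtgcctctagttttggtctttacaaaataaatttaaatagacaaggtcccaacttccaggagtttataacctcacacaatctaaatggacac
The CG dinucleotide, the same on both strands, was found 7, 3 and 1 times in these windows. At least as many were present in 52.1%, 76.7% and 94.6% of the 32851 windows of the table, whose median was 7. All 3 windows were thus at or below the middle of the table in CG content.

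Levels differed far more between genes than between groups. Per kilobase of exon, which allows genes to be compared, the members spanned a 528-fold range in controls, with 17 genes above 10 CPM per kilobase, 15 between 1 and 10, and 8 below 1. Kcnab2, the beta subunit Kvβ2, was highest at 163 ± 22.7 CPM per kilobase in iKO libraries and 147 ± 14.3 in controls (SD, n = 6 each). It alone made up 21.0% of the summed level of all 40 genes in iKO libraries and 19.5% in controls. The auxiliary genes together made up 48.9% in iKO libraries and 48.4% in controls. After Kcnab2 came the KChIP genes Kcnip4 (70.2 ± 5.67 in iKO, 73.6 ± 9.30 in controls) and Kcnip3 (69.7 ± 10.2 and 71.0 ± 5.02), then the Kv4.1 gene Kcnd1 (58.5 ± 7.07 and 59.7 ± 2.93) and the Kv1.2 gene Kcna2 (51.1 ± 8.44 and 54.0 ± 5.10). Of the 39 neighbouring pairs in the order of control levels, only 4 had control ranges that did not overlap: Kcnab2 over Kcnip4, Kcnip3 over Kcnd1, Kcna2 over Kcnip2, and Kcnh2 over Kcnv1. The rest of the order is therefore not resolved by these libraries. At the low end were Kcng1, Kcne3 and Kcnh3, at 0.22 ± 0.08, 0.31 ± 0.16 and 0.41 ± 0.12 CPM per kilobase in iKO libraries and 0.42 ± 0.12, 0.38 ± 0.09 and 0.28 ± 0.06 in controls. Kcne3 had 7 to 21 counts per library, did not pass the filter on low counts and was not tested, which left 39 members.

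**Figure D1:**
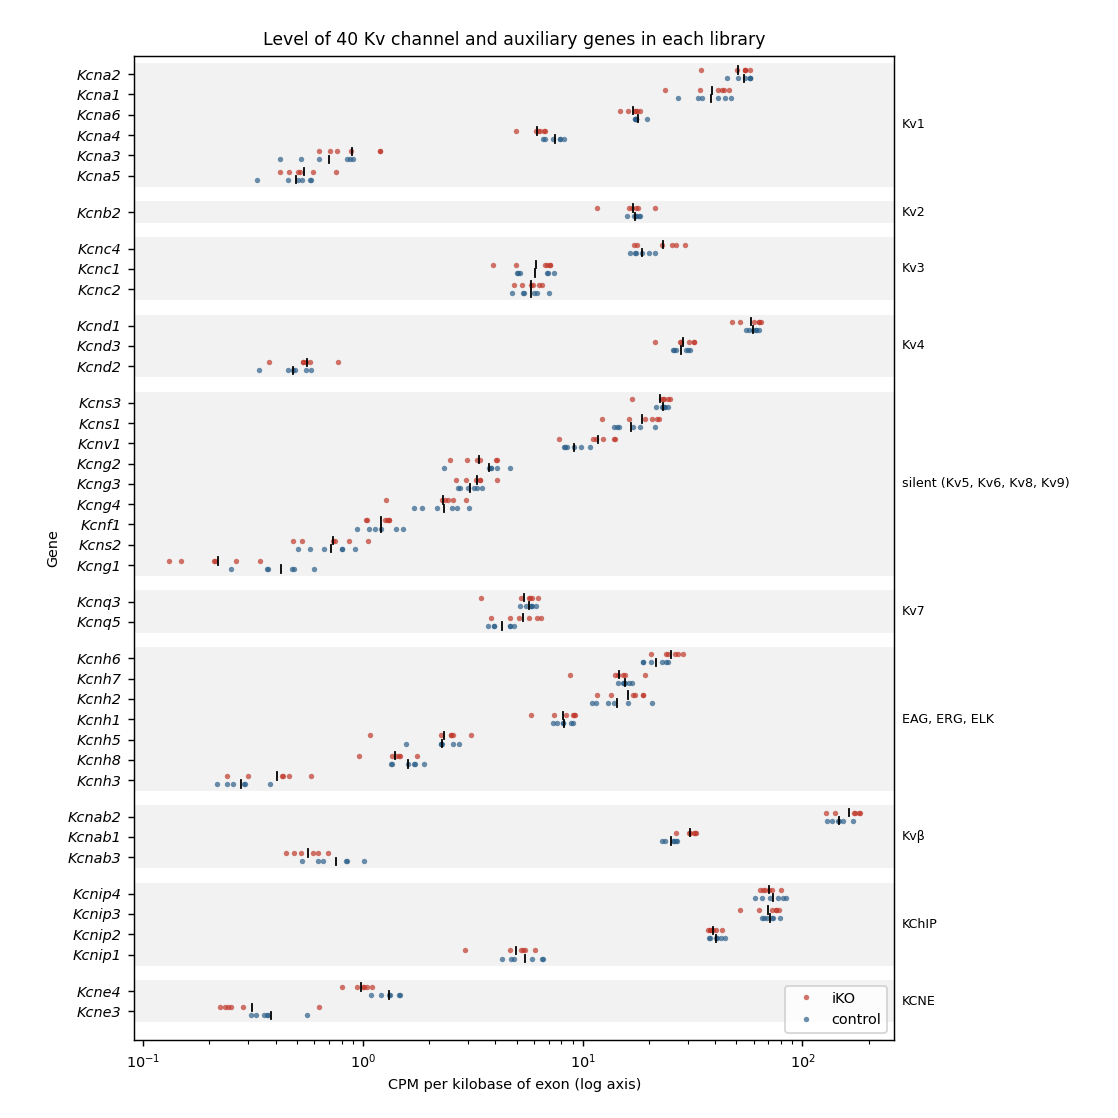
CPM per kilobase of exon (log axis) of the 40 genes by subfamily, 1 point per library with iKO (red) above control (blue) and a black tick at each group's mean. The gap between genes, from 0.28 CPM per kilobase for Kcnh3 to 147 for Kcnab2 in controls, is far wider than that between the groups of any gene.

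The summed level of all 40 genes was 777 ± 91.7 CPM per kilobase in iKO libraries (602 to 841) and 754 ± 25 in controls (728 to 797; SD, n = 6 each), and the lowest value was that of iKO 1. Of the 39 genes tested, 21 had positive and 18 negative log2 fold changes, and 50% of all 16384 genes tested were positive. The members' median was 0.01, beside 0.00 over all genes. The median size of the change was 0.10 for the members, beside 0.09 for all genes. A gene was called where edgeR's quasi-likelihood test gave a Benjamini-Hochberg adjusted p under 0.05 over all genes. By this rule 1 member was called (2.56% of those tested), where 0.946% of all genes were. An unadjusted p under 0.05 was reached by 9 members (23.1%), where 9.52% of all genes reached it. Of these 6 were higher, against 5.33% of all genes, and 3 lower, against 4.18%. In 0 of the 39 did the iKO and control libraries not overlap, where 1.54% of all genes had groups that did not overlap. The 95% interval of the fold change lay within 1.5-fold in either direction for 32 of the 39 genes and within 2-fold for 37.

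**Figure D2:**
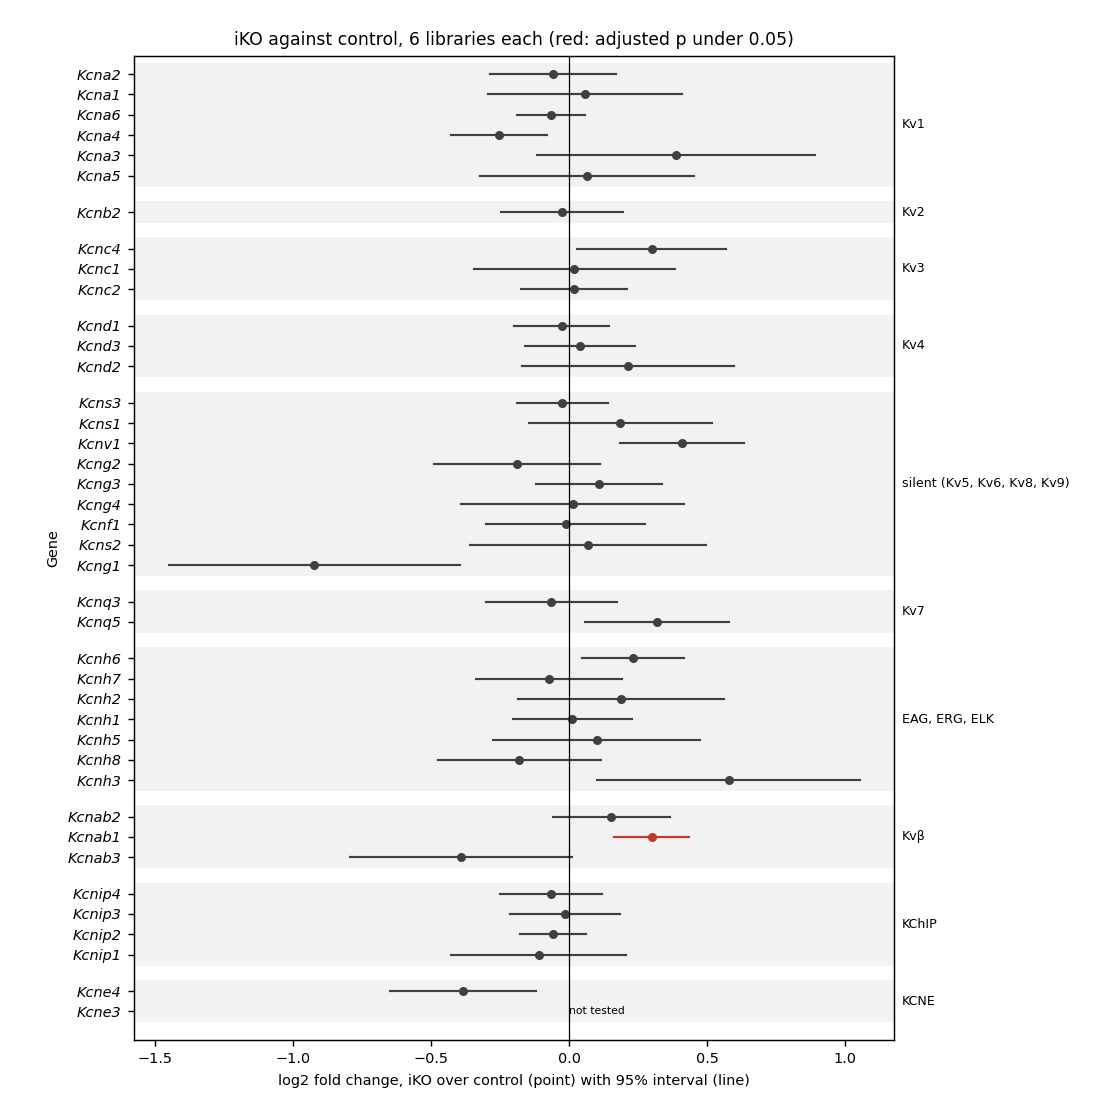
Log2 fold change of each member, iKO over control, with its 95% interval, 6 libraries a group, in the subfamily order of the level plot. Kcnab1 (red) is the member called, and 20 of the 39 points lie within 0.1 of 0.

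Among the Kvβ genes, whose products bind Kv1 channels and in part speed up their inactivation, Kcnab1 rose. It was at 229, 270 and 281 CPM (lowest, median and highest) in iKO libraries and at 198, 222 and 230 CPM in controls. All 6 iKO libraries lay above the control median, and the groups overlapped only through iKO 1, the lowest iKO library, and control 1, the highest control. On the log2 scale the change was 0.30 ± 0.06 (SE, adjusted p = 0.0406, edgeR), or 1.23-fold with a 95% interval of 1.12 to 1.35. The log2 fold change stayed between 0.26 and 0.35 in all 26 alternative analyses, of which 14 lost the call. It was lost on leaving out any of iKO 2 to 6 or of controls 2, 3, 4 and 6 (adjusted p = 0.0516 to 0.113, edgeR). Within replicates 1 to 4 it was 0.30 (adjusted p = 0.382 by the same test) and within replicates 5 and 6, a separate run of sample numbers, 0.35 (0.0601). It was also called with DESeq2 size factors, limma-voom, no sex term or the run of sample numbers as a term, where 0.964%, 0.922%, 1.06% and 0.989% of all genes were called. Without the filter on low counts Kcnab1, Kcnv1 and Kcng1 were called, where 0.705% of all genes were. No member was called within replicates 1 to 4, without the corn-oil controls, or with a replicate block without and with the sex term, where 0.211%, 1.41%, 0.983% and 0.482% of all genes were. Kcnab1 shares 2.34% of its exon bases with the antisense gene A330015K06Rik, and these libraries do not record strand.

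Kcnab2, the most abundant Kvβ gene, was at 714, 959 and 1018 CPM in iKO libraries and at 720, 814 and 952 CPM in controls. The control range lay inside the iKO range (log2 fold change 0.15 ± 0.10 SE, adjusted p = 0.652, edgeR). Kcnab3, a beta subunit gene with 23 to 42 counts per library, was at 1.28, 1.6 and 1.99 CPM in iKO libraries and at 1.51, 2.14 and 2.89 CPM in controls. All 6 iKO libraries were below its control median, yet the change of -0.39 ± 0.19 was not called (adjusted p = 0.533). The share of Kcnab1 in the summed Kvβ level was 16.0% ± 1.61 in iKO libraries and 14.7% ± 1.71 in controls (SD, n = 6 each). This share differed by less than 1 SD.

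The Kv1 genes encode the alpha subunits that Kvβ proteins bind. Of 6 tested, 0 were called, 3 had positive and 3 negative fold changes, and the median was 0.00. Kcna2 and Kcna1 (Kv1.1), the low-threshold subunits of myelinated axons, together with Kcna6 (Kv1.6) made up most of the Kv1 level. Kcna2 was at 412, 652 and 685 CPM in iKO libraries and at 538, 668 and 690 CPM in controls. Without iKO 1, which held the lowest value, the other 5 iKO libraries started at 599 CPM. The share of Kcna2 in the summed Kv1 level per kilobase was 44.6% ± 0.77 in iKO libraries and 45.6% ± 1.0 in controls, and that of Kcna1 33.6% ± 2.5 and 31.9% ± 3.37. Kcna6 had a 95% interval of the log2 fold change of -0.19 to 0.06, and 39.6% of its exon bases are shared with the antisense gene Gm26673. The counting options are not known, so the Kcna6 counts may hold reads of that gene or lack reads of their own. The Kcna6 level is uncertain to that extent.

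Kcna4 encodes Kv1.4, the A-type Kv1 subunit known from small-diameter sensory neurons. It was at 24.0, 30.5 and 32.7 CPM in iKO libraries and at 32.0, 36.7 and 39.7 CPM in controls. All 6 iKO libraries lay below the control median, and the ranges overlapped only between 32.0 and 32.7 CPM. The log2 fold change of -0.26 ± 0.08 (SE) was not called (adjusted p = 0.248, edgeR). With the sensory neuron score of each library as a term, it was -0.32 ± 0.07 and called (adjusted p = 0.0274), and with the macrophage score -0.28 ± 0.07 (adjusted p = 0.0333). With these terms 2 and 4 members were called, where 1.76% and 1.92% of all genes were called. The terms were added after the data were seen, and the members as a set moved down under them. Their median log2 fold change was -0.09 and -0.03 with the 2 scores, and 0.01 in the main fit. Kcna3 (Kv1.3), a subunit also prominent in immune cells, was at 1.2, 1.56 and 2.27 CPM in iKO libraries and at 0.80, 1.40 and 1.71 CPM in controls, with broad overlap (0.39 ± 0.24, adjusted p = 0.634). Kcna5 (Kv1.5) had a fold change of 0.06 ± 0.18.

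The Kv2 family was represented by Kcnb2 (Kv2.2), a delayed rectifier. It was at 176, 260 and 323 CPM in iKO libraries and at 240, 265 and 276 CPM in controls, and both extremes of the 12 libraries, iKO 1 and iKO 4, were iKO libraries. Its log2 fold change came to -0.02 ± 0.10 (SE, 95% interval -0.25 to 0.20).

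Electrically silent subunits change the gating of Kv2 channels and cannot form channels alone. Of these 9 genes 0 were called, 5 had positive and 4 negative fold changes, and the median was 0.01. Kcnv1 (Kv8.1) was at 35.7, 54.9 and 64.5 CPM in iKO libraries and at 37.6, 40.4 and 49.5 CPM in controls. Here iKO 1 lay below every control, while the other 5 iKO libraries lay above every control. Over all 12 libraries the change was 0.41 ± 0.10 on the log2 scale (SE, adjusted p = 0.112, edgeR), or 1.33-fold. Without iKO 1 it was 0.48 ± 0.07 and called (adjusted p = 0.00177). It was also called by DESeq2 on all 12 libraries (adjusted p = 0.0211), where 1.79% of all genes were called. Kcns3 (Kv9.3), the silent subunit with the highest level per kilobase, was at 53.1, 73.6 and 79.0 CPM in iKO libraries and at 68.2, 73.9 and 77.5 CPM in controls. Apart from iKO 1 its libraries all lay between 68.2 and 79.0 CPM, and the 95% interval of its log2 fold change was -0.19 to 0.14. Kcns1 (Kv9.1) had 0.19 ± 0.15.

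Kcng1 (Kv6.1) had the most negative fold change of the set and also one of its lowest levels, with 11 to 41 counts per library. It was at 0.59, 0.95 and 1.54 CPM in iKO libraries and at 1.13, 1.90 and 2.7 CPM in controls. All 6 iKO libraries lay below the control median, but iKO 5 and iKO 6 lay above control 1. The change on the log2 scale was -0.92 ± 0.25 (SE, adjusted p = 0.129, edgeR), or 0.53-fold with an interval of 0.37 to 0.76. The other silent subunits, Kcng2, Kcng3, Kcng4, Kcnf1 and Kcns2, had log2 fold changes from -0.19 to 0.11.

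**Figure D3:**
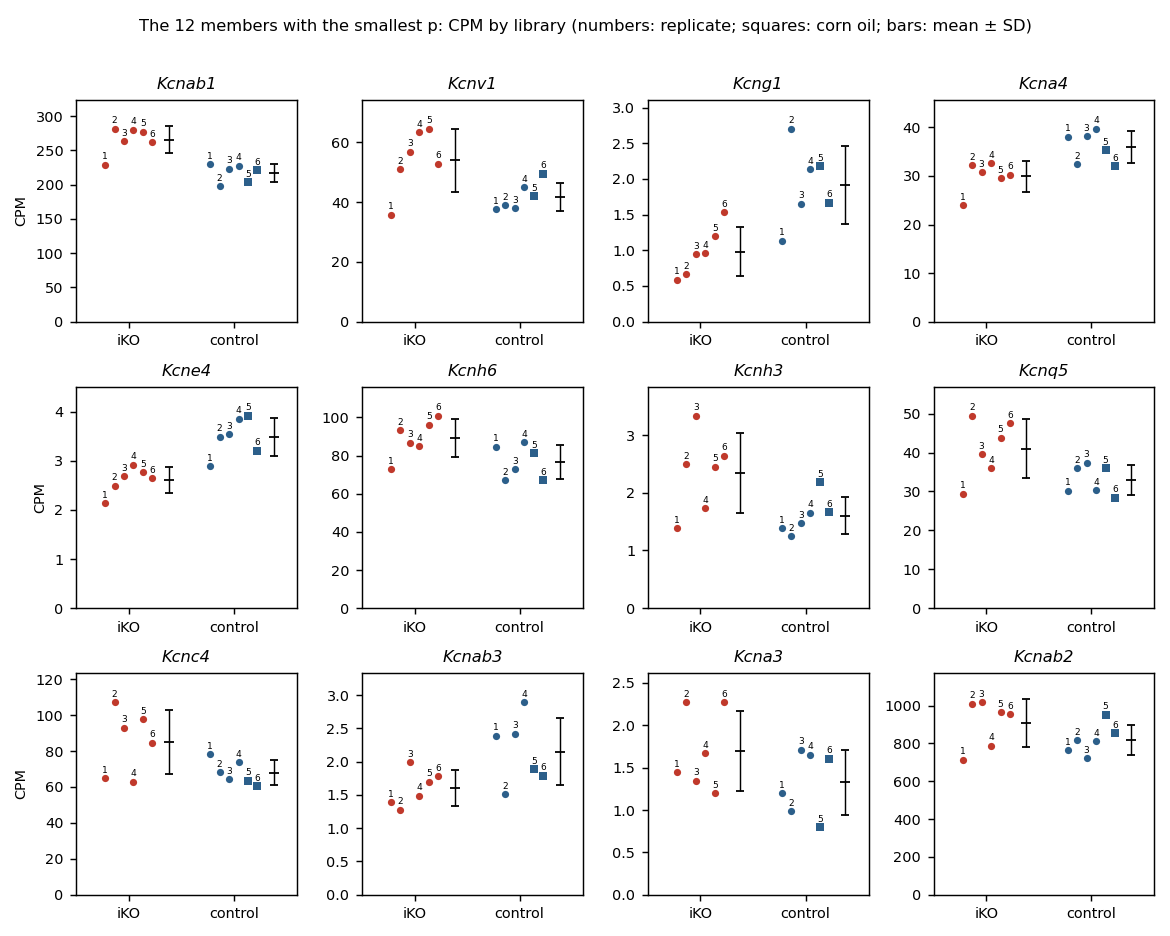
CPM in each library for the 12 members with the smallest p, iKO left and control right, with replicate numbers, squares for the corn-oil controls and bars for mean ± SD. The iKO 1 point is the lowest of its group for Kcnab1, Kcnv1, Kcng1, Kcna4, Kcne4, Kcnh6, Kcnh3, Kcnq5 and Kcnab2.

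Kv3 channels close fast and allow brief action potentials. The 3 Kv3 genes all had positive values, of which 0 were called (median log2 fold change 0.02). Kcnc4 (Kv3.4), which gives an A-type current in nociceptors, was at 62.8, 88.8 and 107 CPM in iKO libraries and at 60.3, 66.3 and 78.1 CPM in controls. Of the iKO libraries 4 exceeded every control, while iKO 1 and iKO 4 lay below the control median. On the log2 scale the change was 0.30 ± 0.12 (SE, adjusted p = 0.467, edgeR). Within replicates 5 and 6, all male and with corn-oil controls, it was 0.56 ± 0.09 and called (adjusted p = 0.0170, edgeR), where 0.497% of all genes were called. Within replicates 1 to 4 it was 0.14 ± 0.16 and not called (adjusted p = 0.868, edgeR). The fit within replicates 5 and 6 had 2 libraries a group, and the deleted gene Prdm12 was not called in it. Kcnc1 (Kv3.1) and Kcnc2 (Kv3.2) had 0.02 ± 0.17 and 0.02 ± 0.09.

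Kv4 channels carry the subthreshold A-type current, with KChIP proteins as their calcium-binding partners. Of the 3 Kv4 genes 0 were called (median 0.04). Kcnd1 was at 252, 327 and 342 CPM in iKO libraries and at 294, 319 and 335 CPM in controls. The iKO 1 and iKO 4 libraries lay below every control, and the other 4 iKO libraries above the control median (-0.03 ± 0.08 SE on the log2 scale, 95% interval -0.20 to 0.15). Kcnd3 (Kv4.3), at 0.04 ± 0.09, and Kcnd2 (Kv4.2), at 0.21 ± 0.18 with 25 to 63 counts per library, were not called either. Of the 4 KChIP genes 0 were called and all had negative fold changes (median -0.06). Kcnip4 was at 233, 250 and 290 CPM in iKO libraries and at 221, 270 and 306 CPM in controls (-0.06 ± 0.09). The iKO range lay inside the control range. Kcnip3, which encodes KChIP3, known also as the transcriptional repressor DREAM, had an interval of -0.21 to 0.19, Kcnip2 one of -0.18 to 0.06 and Kcnip1 one of -0.43 to 0.21. Shares within the Kv4 and KChIP genes differed by less than 1 SD for the leading gene of each. Kcnd1 made up 66.7% ± 1.77 of the Kv4 level in iKO libraries and 67.6% ± 2.23 in controls, and Kcnip4 38.2% ± 3.04 and 38.5% ± 3.66 of the KChIP level.

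Kv7 subunits form the M-channel, which opens below the firing threshold. Kcnq5 (Kv7.5) was at 29.4, 41.7 and 49.5 CPM in iKO libraries and at 28.4, 33.2 and 37.4 CPM in controls, and 4 of the 6 iKO libraries exceeded every control. Kcnq5 had a log2 fold change of 0.32 ± 0.12 (SE, adjusted p = 0.398, edgeR), and 0.39 ± 0.09 without iKO 1, when it was called (adjusted p = 0.0453). Kcnq3 (Kv7.3) was at 50.5, 84.5 and 91.7 CPM in iKO libraries and at 76.1, 85.2 and 89.7 CPM in controls, with iKO 1 as the only library below 76.1 CPM (-0.06 ± 0.11, adjusted p = 0.884). The share of Kcnq5 in the summed level of these 2 genes per kilobase was 49.8% ± 3.79 in iKO libraries (45.0% to 54.1%) and 42.9% ± 3.15 in controls (38.9% to 46.7%). The ranges of this share overlapped only between 45.0% and 46.7%. No test was run on it.

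The EAG, ERG and ELK channels form a related family, of which ERG channels are known for slow currents that outlast the spike. Of 7 genes 0 were called, 5 had positive and 2 negative fold changes, and the median was 0.10. Kcnh6 (ERG2), the highest per kilobase, was at 72.8, 90.1 and 101 CPM in iKO libraries and at 67.0, 77.1 and 86.9 CPM in controls, with iKO 1 the only iKO library below the control median (0.23 ± 0.09 SE, adjusted p = 0.376, edgeR). Kcnh3 (ELK2), a low gene with 19 to 67 counts per library, was at 1.39, 2.47 and 3.34 CPM in iKO libraries and at 1.25, 1.57 and 2.18 CPM in controls (0.58 ± 0.22, adjusted p = 0.397). Again 5 of 6 iKO libraries lay above the control median. Kcnh2 (ERG1) had 0.19 ± 0.17, Kcnh5 (EAG2) 0.10 ± 0.17, Kcnh1 (EAG1) 0.01 ± 0.10, Kcnh7 (ERG3) -0.07 ± 0.12 and Kcnh8 (ELK1) -0.18 ± 0.14.

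Kcne4 encodes a single-span subunit known to dampen Kv1 channels. It was at 2.14, 2.67 and 2.92 CPM in iKO libraries and at 2.89, 3.52 and 3.92 CPM in controls. The highest iKO library, iKO 4, exceeded only control 1, the lowest control, so the groups were nearly apart, with 40 to 60 counts per library. Its log2 fold change came to -0.38 ± 0.12 (SE, adjusted p = 0.252, edgeR).

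Proteins that anchor or accompany Kv channels were read from a list of 22 genes, of which 21 were tested and 0 called. The list includes Dpp6 and Dpp10, partners of Kv4, and Cntnap2 (Caspr2), which holds Kv1 channels beside the node, and its median log2 fold change was 0.01. Amigo1, a Kv2 partner, had the smallest p. It was at 230 ± 28.4 CPM in iKO libraries and 187 ± 7.12 CPM in controls (SD, n = 6 each), a log2 fold change of 0.30 ± 0.08 (SE, adjusted p = 0.123, edgeR). Dpp6 was at 445 ± 65.5 and 499 ± 22.7 CPM, Dpp10 at 228 ± 26.6 and 246 ± 18.8 CPM, and Cntnap2 at 272 ± 53.9 and 275 ± 31.6 CPM in iKO and control libraries.

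The iKO 1 library held many of the lowest values. It was the lowest iKO library for 33 of the 39 members (84.6%), where it was the lowest for 32.8% of all genes tested. For 24 members it was the lowest of all 12 libraries, which was not counted over all genes. The median coefficient of variation over the members was 18.4% in iKO libraries and 11.6% in controls, and 10.6% in the iKO libraries without iKO 1. Without it 3 members were called, Kcnab1 (0.33 ± 0.05 SE on the log2 scale), Kcnv1 and Kcnq5, all higher, where 2.21% of all genes were called. In that fit 29 of the 39 members had positive log2 fold changes and their median was 0.08, beside -0.0033 over all genes. Without control 6 as well, Kcnab1 and Kcnv1 were called, where 2.09% of all genes were. The other 5 iKO libraries lay above all controls for 2 members, Kcnab1 and Kcnv1, where this held for 1.65% of all genes, and below all controls for 0, where it held for 1.27%. Marker scores for sensory neurons and for other cells moved with these values in iKO 1, as given above. Fits with the sensory neuron or the macrophage score as a term were added after the data were seen. The iKO 1 library held the extreme of both scores, so these fits cannot show the markers' part in the members' levels. Kcnab1 had 0.26 ± 0.06 with the sensory neuron score (adjusted p = 0.0256, edgeR) and 0.28 ± 0.05 with the macrophage score (0.0091). With the sensory neuron score 13 of the 39 members had positive log2 fold changes and their median was -0.09, beside -0.0014 over all genes. With the macrophage score 15 were positive and the median was -0.03, beside -0.0040 over all genes. The balance of signs over the members thus differed between these fits, and the fit without iKO 1 had the most positive values of the 3. The score of 9 myelinating Schwann cell genes was 0.44 in iKO 1, -0.10 to 0.28 in the other iKO libraries and -0.37 to 0.14 in controls, and its part in the members' levels was not tested.

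**Figure D4:**
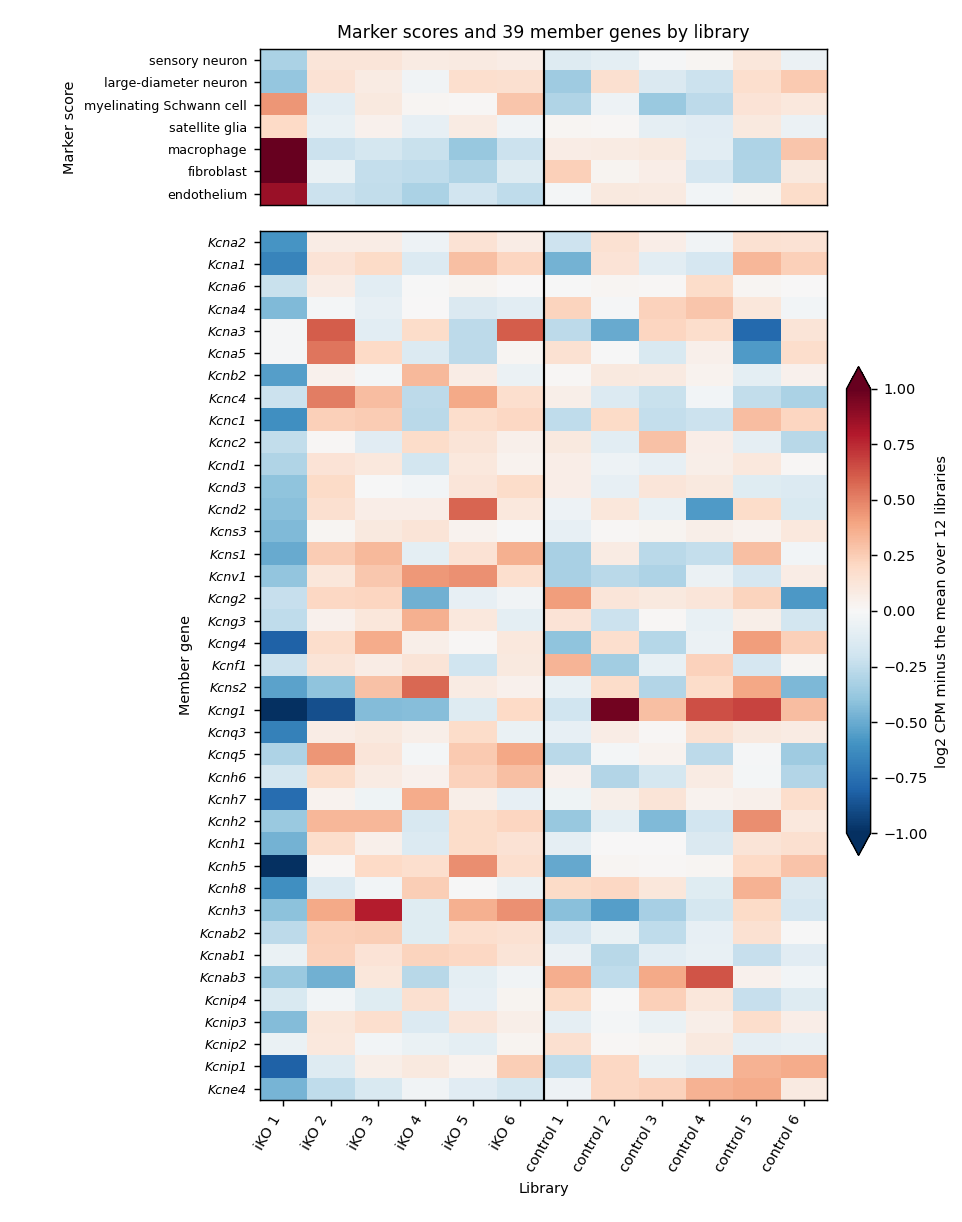
Log2 CPM minus the mean over the 12 libraries for 39 members (lower panel) and marker scores (upper panel), iKO left of the line and control right. The iKO 1 column is below the mean for most members and above it for macrophage, fibroblast and endothelial scores, 1.08, 1.02 and 0.87.

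Against the 4 tamoxifen controls alone 0 members were called, where 1.35% of all genes were called, and 9 had an unadjusted p under 0.05, where 17% of all genes had one. Against the 2 corn-oil controls, which share the iKO genotype, 0 were called, where 0.146% of all genes were called, and 5 had an unadjusted p under 0.05, where 5.3% of all genes had one. Both comparisons use the same iKO libraries. Kcnab1 had log2 fold changes of 0.27 ± 0.07 and 0.36 ± 0.10 (SE) against tamoxifen and corn-oil controls (adjusted p = 0.0762 and 0.351, edgeR), and Kcnv1 0.43 ± 0.12 and 0.36 ± 0.16 (0.107 and 0.935). For Kcna4 they were -0.31 ± 0.08 and -0.11 ± 0.11 (0.0871 and 1.00). Both Kcnab1 and Kcnv1 kept their direction against either kind of control, and the value of Kcna4 was smaller against corn oil.

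Of the 39 members, 15 had opposite signs against the 2 kinds of control, a count not taken over all genes. Only 1 of these, Kcnip4, had an unadjusted p under 0.05 against both (edgeR). Kcnh2, Kcnip4 and Kcnc2 are given as examples. Kcnh2 averaged 78.1 ± 14.4 CPM in iKO libraries (SD, n = 6) and 59.9 ± 6.66 CPM in tamoxifen controls (n = 4), and was at 99.9 and 77.9 CPM in corn-oil controls 5 and 6. Kcnip4 averaged 254 ± 20.5 CPM in iKO libraries and 286 ± 20.7 CPM in tamoxifen controls, with 221 and 237 CPM in the corn-oil controls. Kcnc2 (Kv3.2) averaged 41.3 ± 4.47 CPM in iKO libraries and 43.8 ± 5.00 CPM in tamoxifen controls, with 38.7 and 33.9 CPM in the corn-oil controls. These genes were chosen after their values were seen, and none was called with all 12 libraries and the filter on low counts. With that filter Kcnh2 had 0.38 ± 0.14 against tamoxifen controls (SE, adjusted p = 0.211, edgeR). Without the filter Kcnh2 was called against tamoxifen controls, at a similar fold change and a smaller SE (0.40 ± 0.08, adjusted p = 5.43e-05, edgeR). It was also called against them without iKO 1 (0.48 ± 0.10, adjusted p = 0.0135, edgeR). Log2 fold changes against tamoxifen and corn-oil controls were -0.17 and 0.21 for Kcnip4, 0.38 and -0.21 for Kcnh2, and -0.09 and 0.29 for Kcnc2. Agent, floxed genotype and run of sample numbers change together between the 2 kinds of control and cannot be told apart. The corn-oil controls were both male, the tamoxifen controls 2 female and 2 male, and sex was a term in the fit. Without iKO 1, 8 members were called against tamoxifen controls, where 8.87% of all genes were called: Kcnab1, Kcnab2, Kcnh2, Kcnh3, Kcnq5, Kcns1 and Kcnv1 were higher and Kcna4 lower. Against corn-oil controls 1 was called without iKO 1, Kcnab1 (0.37 ± 0.07, adjusted p = 0.0154), where 0.972% of all genes were called. Without the filter on low counts 8 members were called against tamoxifen controls, where 2.58% of all genes were, and 1, Kcnc4, against corn-oil controls, where 0.973% were.

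Between the sexes 0 members were called by edgeR, where 0.0549% of all genes were, and 2 had an unadjusted p under 0.05, where 4.11% of all genes had one. Kcnv1 had the smallest p (male over female 0.27 ± 0.11 SE on the log2 scale, adjusted p = 0.904), at 50.8 CPM on average in males and 44.0 CPM in females. Positive fold changes, higher in males, were seen in 34 of the 39 members (87.2%), where 49.6% of all genes were positive. Both corn-oil controls and all libraries of replicates 5 and 6 were male, and neither agent nor run of sample numbers was a term. The part of agent and run in these signs was not tested. Both iKO 1 and control 1, the library lowest among controls for 15 members (not counted over all genes), were female. Without iKO 1 alone 27 of the 39 were positive (69.2%), where 53.2% of all genes were, and without control 1 alone 34 (87.2%), where 52% were. Without both, 23 of the 39 members were positive, where 54.3% of all genes were. The difference in the iKO effect between sexes was called for 0 members and 0 genes by edgeR's interaction test, with 0 members and 589 genes (3.59%) at an unadjusted p under 0.05.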

How the data were processed

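Poly(A) RNA of 12 dorsal root ganglion libraries was sequenced from non-stranded TruSeq libraries, per the labels' protocols. The authors deposited unnormalized counts for each gene. They list bcl2fastq 2.20.0.422, STAR 2.7.8a, featureCounts 2.0.1 and build GRCm39, per the submitters' processing notes. No source used here gives the annotation or the counting options. Symbols came from GENCODE M21 (build GRCm38) by gene identifier, which named 52083 of 55416 identifiers, and exon lengths came from its exon union. Groups and replicate numbers came from the titles.

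Counts were scaled by TMM and filtered with filterByExpr on the groups, leaving 16384 genes. These were fitted with edgeR 4.0.16 (R 4.3.3, robust quasi-likelihood, sex as a term, 2-sided, Benjamini-Hochberg over all genes, threshold 0.05). The procedure was tested on simulated data, which held no outlying library such as iKO 1 and so do not show how it handles one. The biological coefficient of variation was 12.8%, and the main fit had 9 residual degrees of freedom. Standard errors were derived from the F statistic, and intervals (95%) from the moderated degrees of freedom. CPM used the TMM-scaled library size. Contrasts with tamoxifen and corn-oil controls were taken in a fit of 3 groups. Marker scores used log2 CPM with a prior count of 2. All 30 pairs of libraries within groups differed beyond sampling noise (mean chi-square per gene 3.23 to 47.5). Alternatives used DESeq2 1.42.0 and limma 3.58.1. The members, lists and tests were chosen with earlier results of these data known. Values per library are given for the 12 members with the smallest p and for the most abundant member of each subfamily per kilobase, other genes being named outside this rule. Length per gene varies with the transcripts used, so levels per kilobase are approximate.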

Additional observations from a re-analysis of the deposited data

Results flagged for a closer look

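In 8 of 80 groups of 6 values (40 members in 2 groups) 1 library stood far from the other 5, by Dixon's criterion at 95%, where chance flags about 5% of groups. Of these, 6 were iKO 1. It was lowest of the iKO libraries for Kcna2 (412 CPM, the others 599 to 685), Kcna4 (24.0 CPM, the others 29.5 to 32.7), Kcnab1 (229 CPM, the others 262 to 281), Kcnq3 (50.5 CPM, the others 77.2 to 91.7) and Kcns3 (53.1 CPM, the others 72.0 to 79.0), and highest for Kcne3 (1.12 CPM, the others 0.40 to 0.50). Among controls, Kcna6 was highest in control 4 (117 CPM, the others 103 to 104) and Kcne3 in control 6 (0.99 CPM, the others 0.55 to 0.66). The part of the iKO 1 marker scores in these values was not tested gene by gene.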

How the results depend on the processing

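Kcnab1 was the 1 member called, and it kept its sign in all 26 alternatives. The number of members called was 2 with DESeq2, 3 without a filter on low counts, 0 without the corn-oil controls, 0 within replicates 1 to 4, and 0 to 3 on leaving out single libraries. It was 0 on leaving out any of iKO 2 to 6 or controls 2, 3, 4 or 6 (adjusted p of Kcnab1 up to 0.113, edgeR). With alternatives chosen after seeing the data it was 2 without iKO 1 and control 6 together, 2 with the sensory neuron score and 4 with the macrophage score. Whether libraries that share a replicate number were handled as pairs is not known. Correlations of deviations between same-numbered libraries were -0.15 to 0.22. The iKO 1, 2 and 5 libraries correlated best with their own number, and the other 3 did not. With the replicate block the number of members called was 0 without and 0 with the sex term. The adjusted p of Kcnab1 was then 0.111 and 0.251 (edgeR), and 161 and 79 genes in all were called. The genes called in all, 155, became 294 with DESeq2, 253 without the filter, 35 within replicates 1 to 4, 82 within replicates 5 and 6, 235 without the corn-oil controls, 341 without iKO 1 and control 6, 289 and 314 with the neuron and macrophage scores, and 92 to 364 on leaving out single libraries. Prdm12 had -2.13 within replicates 5 and 6 (adjusted p = 0.622 by the same test). Members called against tamoxifen controls numbered 8 without the filter and 0 to 8 on leaving out single libraries, and against corn-oil controls 1 and 0 to 1. The cause was not tested.

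Of 18 named members 12 kept their sign throughout. The other 6, none of them called, turned positive in places. Within replicates 1 to 4 Kcns3 was at 0.0067, within replicates 5 and 6 Kcnb2 was at 0.040, Kcnd1 at 0.014 and Kcnip4 at 0.16, and without the corn-oil controls Kcnd1 was at 0.0030. Without iKO 1 and control 6 Kcna2 was at 0.038, Kcnb2 at 0.057, Kcnd1 at 0.028, Kcns3 at 0.052 and Kcnq3 at 0.027. On leaving out single libraries the ranges were -0.093 to 0.018 for Kcna2, -0.10 to 0.053 for Kcnb2, -0.049 to 0.022 for Kcnd1, -0.060 to 0.036 for Kcns3, -0.11 to 0.021 for Kcnq3 and -0.11 to 0.0015 for Kcnip4. The control level per kilobase of the most abundant member of each subfamily moved by less than 1 SD in 70 of 70 alternatives. Most of these left out 1 of the 6 controls, which cannot move a mean by 1 SD of the same values. They therefore do not test how stable the levels are. The rest used DESeq2 size factors. Kcng1 had 11 to 41 counts per library and Kcnh3 19 to 67, and the part of depth in their tests was not tested.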
